A study of Mus musculus with 16 samples.

Results

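The comparison described here set mouse trophectoderm stem cells (TSC) cultured alone with BMP4 against induced pluripotent stem cells (iPSC) cultured alone with BMP4. Its 4 libraries, 2 per cell type, are all those that the labels give as TSC or iPS alone with BMP4, of 16 in the series. The TSC carried RFP and the iPSC carried GFP, and no label gives a genotype, a sex or the origin of either line. Both cell types grew on 5% Matrigel in a serum medium that held 12.5 ng/ml FGF4 and 500 ng/ml heparin. After 2 days BMP4 was added for another 24 hours, and the sources used here do not state its dose. Single colonies were picked on day 3 and made into libraries with Smart-seq2, so each library is 1 colony and both cell types had FGF4, heparin and serum as well as BMP4. For comparison, the same cell types alone without BMP4 (2 libraries each) and the TSC and iPSC parts of mixed structures with BMP4 (2 libraries each), separated by hand under the microscope, were used.

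BMP4 binds paired type I and type II receptors that phosphorylate SMAD1 and SMAD5, which enter the nucleus with SMAD4 and switch on genes such as Id1, Id2 and Id3. In the mouse embryo BMP4 is made by the extraembryonic ectoderm, the tissue that trophoblast stem cells stand for in culture, and acts on the epiblast next to it, where the primitive streak and the primordial germ cells arise. FGF4 passes the other way, from the epiblast to the trophoblast, and keeps trophoblast stem cells dividing. Adding BMP4 to each cell type alone gives both the same ligand with no partner tissue.

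Levels are the deposited FPKM, which count fragments per length of transcript and per mapped total. Differences are those of log2(FPKM + 1), TSC with BMP4 minus iPSC with BMP4, with the SE from limma, and on this scale the fold of a lowly expressed gene is understated. Of 31663 entries, 13406 reached 1 FPKM in at least 2 of the 16 libraries and were tested. Of these, 2436 passed an adjusted p of 0.05 in limma (18.2%), 1021 of them higher in TSC (7.62%) and 1415 lower (10.6%), against a median difference over all tested genes of -0.09. The counts for gene lists below are to be read beside these shares. After quantile normalization 1378 were higher and 1257 lower, and after rescaling to the upper quartile 1169 and 1177, so the balance of directions depends on the scaling. The number of calls was 954 without replicate 1 of iPSC with BMP4, 1136 without its replicate 2, 1486 without replicate 1 of TSC with BMP4, and 1195 when the fit held these 4 libraries alone. In all, 701 calls (28.8%) held without any 1 of the 4 libraries, and the genes called below are among them unless a library is named beside them. Whether the colonies of a group came from separate cultures is not in the labels, so p-values measure only the spread between colonies, pooled over the 8 groups of the series, which may be technical.

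The 4 libraries held 10601 to 11203 entries at 1 FPKM or more and summed to 709397 to 915070 FPKM. Across genes, the replicates had a Pearson's r of 0.956 in TSC with BMP4 and 0.967 in iPSC with BMP4, and a gap beyond 2-fold separated the pair for 1262 genes in TSC with BMP4 and for 651 in iPSC with BMP4. Replicate 1 of TSC with BMP4 had 1 predicted entry, Gm14039 (chosen after its values were seen), at 31765 FPKM. In replicate 2 of iPSC with BMP4 Hand1, Gata3, Rhox6, Plac1, H19, Bmp4 and Mixl1 were all higher than in replicate 1, with values given below. Elf5 and Esrrb in that library were at 0.283 and 0.414 FPKM, and the part of 1 colony's make-up in the results was not tested. The feeder genes Col1a1, Col1a2, Col3a1, Dcn, Lum and Pdgfrb (chosen after their values were seen) were between 0 and 0.243 FPKM in all 4 libraries. Thy1 and Twist1, also set as feeder markers, are not given here, so these low values do not show that feeder RNA was absent. The 24 fibroblast and mesenchymal markers together summed to 31.3 and 38.3 FPKM in TSC with BMP4 and to 67.0 and 89.0 FPKM in iPSC with BMP4. Of the 12 tested markers 3 were lower in TSC and none was higher, with the counts without single libraries given below. In bulk colonies, fewer cells of a type and less RNA per cell cannot be told apart.

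**Figure D1:**
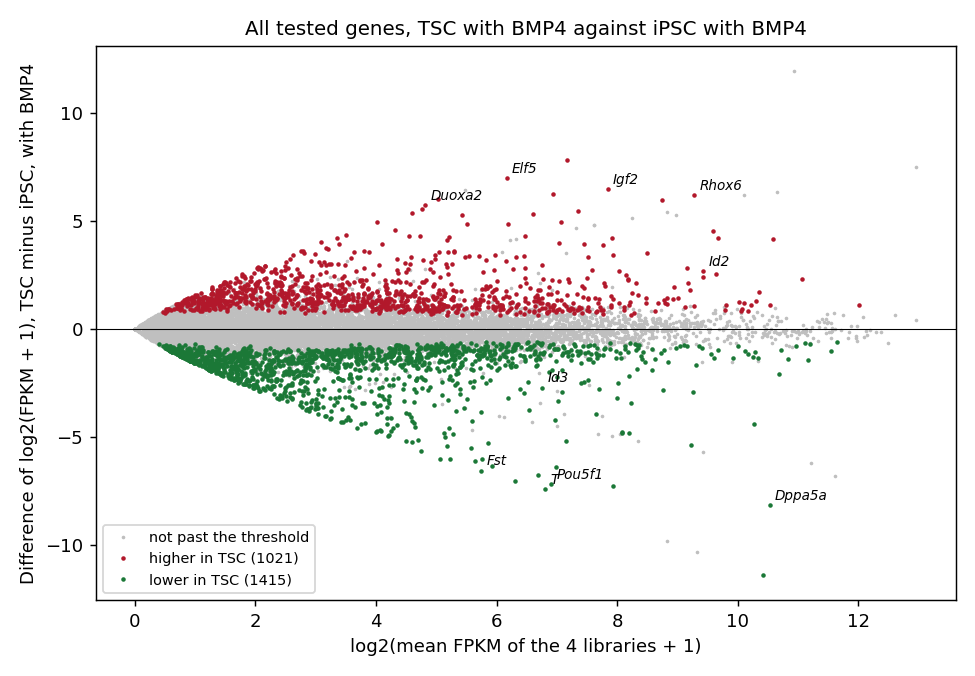
Each point is 1 of the 13406 tested genes, with log2(mean FPKM of the 4 libraries + 1) on the horizontal axis and the difference, TSC with BMP4 minus iPSC with BMP4, on the vertical axis. Coloured points passed the limma threshold: 1021 lie above 0 and 1415 below it.

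With BMP4 present, some of the transcription factors of the trophoblast stem cell, Elf5, Tfap2c, Eomes and Tead4 among them, were higher in TSC colonies than in iPSC colonies. The list of trophoblast stem cell and extraembryonic ectoderm genes had 35 tested members, of which 17 were higher in TSC, 2 were lower and 16 did not pass, with a median difference of 2.00. The number higher was 10 without replicate 1 of iPSC with BMP4 and 10 without replicate 2 of TSC with BMP4. The list summed to 3940 and 5114 FPKM in TSC with BMP4 and to 1003 and 1594 FPKM in iPSC with BMP4.

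Elf5, an ETS factor that keeps trophoblast cells in their lineage, had 153 and 130 FPKM in TSC with BMP4 and 0 and 0.283 FPKM in iPSC with BMP4. That is a difference of 6.97 ± 1.12, limma adjusted p = 0.00131. Tfap2c, an AP-2 factor needed for trophoblast self-renewal, had 44.7 and 77.4 FPKM in TSC and 5.90 and 13.8 FPKM in iPSC (2.57 ± 0.39, limma adjusted p = 0.000894). Eomes, a T-box factor shared by trophoblast stem cells and the primitive streak, was steady within each group, at 14.3 and 13.7 FPKM in TSC and 2.85 and 3.04 FPKM in iPSC (1.93 ± 0.35, limma adjusted p = 0.00300). Tead4, which opens the trophectoderm programme in the early embryo, had 11.7 and 17.9 FPKM in TSC and 0.686 and 0.989 FPKM in iPSC (3.08 ± 0.52, limma adjusted p = 0.00193). For all 4 of these genes every TSC library lay above both iPSC libraries.

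Other members of the trophoblast circuit were less clearly apart. Gata3 had 14.0 and 17.7 FPKM in TSC and 1.07 and 6.42 FPKM in iPSC (2.09 ± 0.48), and its call was lost without replicate 1 of iPSC with BMP4 (limma adjusted p = 0.104) and without replicate 2 of TSC with BMP4. Gata2 had 14.5 and 26.9 FPKM in TSC and 2.86 and 11.2 FPKM in iPSC and did not pass (limma adjusted p = 0.115). Cdx2, the homeobox factor that starts the trophectoderm and marks dividing trophoblast stem cells, had 2.73 and 6.24 FPKM in TSC and 1.99 and 6.16 FPKM in iPSC, and the groups overlapped. Esrrb, an orphan receptor downstream of FGF in trophoblast stem cells, had 7.79 and 9.83 FPKM in TSC and 0.546 and 0.414 FPKM in iPSC, which passed with all libraries (limma adjusted p = 0.0155) but not without any 1 of the 4 (limma adjusted p of 0.0562 to 0.0788). Of the defining trophoblast genes, Elf5, Tfap2c, Eomes and Tead4 thus stood where the label TSC puts them, and Cdx2 did not separate the groups. For Eomes this held with BMP4, since without BMP4 Eomes was lower in TSC than in iPSC, as given below.

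**Figure D2:**
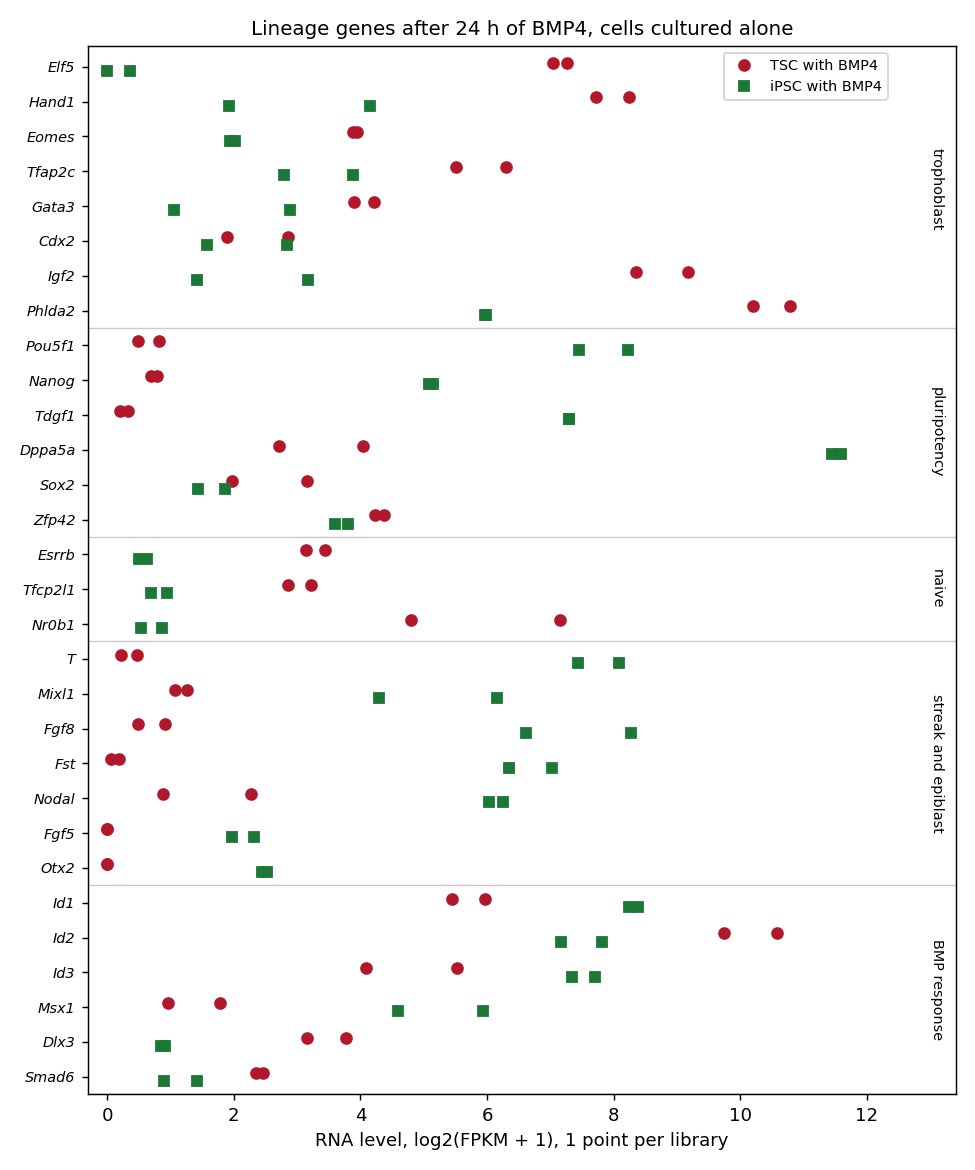
Level of log2(FPKM + 1) on the horizontal axis for 30 genes in 5 groups, with 1 point per library, circles for TSC with BMP4 and squares for iPSC with BMP4. The groups stand apart for Elf5, Pou5f1 and T, and overlap for Cdx2.

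Most of the Rhox genes, a cluster of X-linked homeobox genes expressed in placenta and germ line, differed in the same direction. Of 12 tested members, 9 were higher in TSC and 1 was lower, with a median difference of 4.12. Rhox6 had 846 and 1562 FPKM in TSC with BMP4 and 2.91 and 61.6 FPKM in iPSC with BMP4, a difference of 6.20 ± 1.38. Rhox9 had 551 and 1120 FPKM in TSC and 3.61 and 33.6 FPKM in iPSC. In both genes the TSC libraries lay far above, but the iPSC libraries differed from each other, and both calls were lost without replicate 1 of iPSC with BMP4 (limma adjusted p = 0.103 for Rhox6 and 0.106 for Rhox9) and without replicate 2 of TSC with BMP4. Rhox4g had 34.6 and 70.0 FPKM in TSC and 0 and 0.176 FPKM in iPSC (5.54 ± 0.76, limma adjusted p = 0.000501). The Rhox4 copies are nearly identical, so reads may be split among them and the level of any 1 copy is uncertain. Rhox13 went the other way, listed at 0 in both TSC libraries, with 2.84 and 2.25 FPKM in iPSC, and its call was lost without any 1 of the 4 libraries.

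Several genes outside the stem cell circuit were among those furthest above. Morc4, a zinc finger ATPase gene, had 176 and 304 FPKM in TSC with BMP4 and 1.75 and 2.49 FPKM in iPSC with BMP4 (6.23 ± 0.70, limma adjusted p = 0.00018). Duoxa2, the maturation factor of the hydrogen peroxide producing enzyme DUOX2, had 59.2 and 49.5 FPKM in TSC and 0.0643 and 0 FPKM in iPSC (5.74 ± 0.36, limma adjusted p = 5.15e-06). Htra1, a secreted serine protease, had 132 and 248 FPKM in TSC and 2.74 and 4.39 FPKM in iPSC (5.34 ± 0.71, limma adjusted p = 0.000433). For these genes no iPSC library came near a TSC library. The chemokine gene Ccl2 had 56.6 and 35.6 FPKM in TSC and 0 and 0.227 FPKM in iPSC (5.37 ± 0.69, limma adjusted p = 0.000361). Trap1a, an X-linked tumour antigen gene, had 248 and 388 FPKM in TSC and 3.78 and 9.20 FPKM in iPSC, and without replicate 1 of iPSC with BMP4 its limma adjusted p was 0.0503.

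Genes of differentiated trophoblast were mixed. Of 18 tested labyrinth and syncytiotrophoblast genes 5 were higher in TSC and none was lower (3 higher without replicate 1 of iPSC with BMP4), and of 6 tested spongiotrophoblast and glycogen cell genes 3 were higher and none was lower. Only 3 of 23 listed giant cell genes could be tested, with 1 higher (Hand1) and 1 lower (Cdkn1a). Hand1, which drives giant cell formation, had 301 and 211 FPKM in TSC with BMP4 and 2.78 and 16.8 FPKM in iPSC with BMP4 (4.95 ± 0.91, limma adjusted p = 0.00318). Cdkn1a, a cell cycle inhibitor, had 30.8 and 108 FPKM in TSC and 308 and 285 FPKM in iPSC, and its call held only without replicate 2 of TSC with BMP4. Dlx3, a homeobox factor of the labyrinth, had 12.7 and 7.93 FPKM in TSC and 0.875 and 0.811 FPKM in iPSC (2.58 ± 0.30, limma adjusted p = 0.000213).

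The terminal markers were close to silent. Tpbpa, which marks spongiotrophoblast, and Prl3d1, a hormone of giant cells, were listed at 0 in all 4 libraries, and Syna, a fusion gene of the syncytiotrophoblast, reached at most 0.0481 FPKM. Gcm1, the factor that starts labyrinth branching, had 0.335 and 0.612 FPKM in TSC and 0.510 and 1.08 FPKM in iPSC. Plac1, a trophoblast surface protein gene, had 16 and 14.2 FPKM in TSC and 0.323 and 7.03 FPKM in iPSC. Its difference of 2.30 ± 0.78 did not pass (limma adjusted p = 0.0575), and passed without replicate 2 of iPSC with BMP4 (limma adjusted p = 0.013), the library with the higher iPSC value.

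Imprinted genes are expressed from 1 parental copy, and many of them act on placental growth. They had calls in both directions, beside 7.62% higher and 10.6% lower over all tested genes. The lower calls of maternally expressed genes and the higher calls of paternally expressed genes were few and close to those shares. Among maternally expressed genes 5 of 16 tested were higher in TSC and 2 were lower, and the number higher was 3 without replicate 2 of iPSC with BMP4. Phlda2, which restrains placental growth, had 1768 and 1173 FPKM in TSC with BMP4 and 61.5 and 62.0 FPKM in iPSC with BMP4 (4.52 ± 0.78, limma adjusted p = 0.00212). Grb10, an adaptor that dampens insulin and growth factor receptors, had 40.4 and 58.6 FPKM in TSC and 2.21 and 0.955 FPKM in iPSC (4.31 ± 0.61, limma adjusted p = 0.000606). Cdkn1c, a cell cycle inhibitor, had 16.2 and 72.4 FPKM in TSC and 0.843 and 0.706 FPKM in iPSC (4.32 ± 0.69, limma adjusted p = 0.00129). These 3 genes were higher in every TSC library than in either iPSC library, while 9 of the 16 did not pass. H19, given below, was among the 2 lower.

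Among paternally expressed genes 2 of 18 tested were higher and 7 were lower, with a median difference of -0.61. Igf2, the imprinted growth factor, had 578 and 327 FPKM in TSC with BMP4 and 1.67 and 8.0 FPKM in iPSC with BMP4 (6.47 ± 1.07, limma adjusted p = 0.00163). Its neighbour H19, a noncoding RNA expressed from the other parental copy, lay the other way, at 0.559 and 0.103 FPKM in TSC and 9.57 and 85.8 FPKM in iPSC. The H19 call was lost without replicate 2 of iPSC with BMP4 (limma adjusted p = 0.124) and without replicate 2 of TSC with BMP4. Impact, a regulator of the translation kinase GCN2, had 1.63 and 0.969 FPKM in TSC and 40.9 and 52.0 FPKM in iPSC (-4.37 ± 0.57, limma adjusted p = 0.000383). Nnat, a small membrane protein gene of neural and endocrine tissue, had 0 and 0.715 FPKM in TSC and 11.9 and 13.8 FPKM in iPSC (-3.40 ± 0.61, limma adjusted p = 0.00279). Dlk1, a Notch-family ligand, was listed at 0 in both TSC libraries and had 2.41 and 2.96 FPKM in iPSC.

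Pluripotency genes separated the groups in the opposite direction, though not all of them. Of 23 tested core and general pluripotency genes 10 were lower in TSC and none was higher, with a median difference of -0.83. The list summed to 636 and 401 FPKM in TSC with BMP4 and to 4192 and 4217 FPKM in iPSC with BMP4. Pou5f1, the POU factor at the centre of pluripotency, had 0.397 and 0.754 FPKM in TSC and 299 and 175 FPKM in iPSC (-7.20 ± 0.65, limma adjusted p = 5.26e-05). Nanog had 0.612 and 0.719 FPKM in TSC and 34.3 and 33.0 FPKM in iPSC (-4.38 ± 0.53, limma adjusted p = 0.000262). Dppa5a, an RNA-binding protein gene of pluripotent cells, had 15.5 and 5.53 FPKM in TSC and 2794 and 3097 FPKM in iPSC (-8.15 ± 1.31, limma adjusted p = 0.00139). Tdgf1, the co-receptor of NODAL, had 0.153 and 0.260 FPKM in TSC and 155 and 156 FPKM in iPSC (-7.02 ± 0.96, limma adjusted p = 0.000495). For these 4 genes no TSC library came near an iPSC library, as the label iPS would have it.

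Other pluripotency genes were not set apart in this way. Sox2, which both stem cell types use, had 2.92 and 7.89 FPKM in TSC with BMP4 and 2.64 and 1.71 FPKM in iPSC with BMP4, so the iPSC colonies held it at a low level. Zfp42 had 17.8 and 19.7 FPKM in TSC and 12.9 and 11.1 FPKM in iPSC. Utf1, a chromatin factor, had 403 and 151 FPKM in TSC and 511 and 379 FPKM in iPSC. None of these 3 passed (limma adjusted p of 0.33, 0.338 and 0.444), and that does not show that they are equal. The naive pluripotency list had 4 of 21 tested genes higher in TSC and 3 lower, and the number higher was 1 or 2 when any 1 of the 4 libraries was left out. Nr0b1, an orphan receptor, had 26.8 and 141 FPKM in TSC and 0.444 and 0.827 FPKM in iPSC (5.27 ± 0.69, limma adjusted p = 0.000393). Tfcp2l1, another naive factor, had 8.33 and 6.27 FPKM in TSC and 0.613 and 0.932 FPKM in iPSC, and lost its call without any 1 of the 4 libraries (limma adjusted p of 0.0868 to 0.169). Klf4, a naive factor, stayed at or under 0.685 FPKM in all 4 libraries.

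The epiblast of the implanted embryo has genes of its own, and these were mainly in the iPSC colonies, with BMP4 as without it. Of 23 tested formative and primed epiblast genes 12 were lower in TSC with BMP4 and 2 were higher, with a median difference of -1.51. Without BMP4, 17 of the 23 were lower and 1 was higher, with a median difference of -3.01. Over all tested genes 20.2% were lower and 16.2% higher without BMP4. Otx2, a homeobox factor of the epiblast and later of the brain, was listed at 0 in both TSC libraries and had 4.44 and 4.74 FPKM in iPSC (limma adjusted p = 0.00423). Lef1, a WNT effector, was listed at 0 in both TSC libraries and had 10.6 and 14.1 FPKM in iPSC (limma adjusted p = 0.000635). The exceptions were Pou3f1 and Zic5. Pou3f1, a POU factor of the primed epiblast, had 12.8 and 13.8 FPKM in TSC and 2.05 and 0.982 FPKM in iPSC (2.54 ± 0.62), and its call held only without replicate 1 of iPSC with BMP4. Zic5, a zinc finger factor, had 7.31 and 11.3 FPKM in TSC and 3.72 and 0.772 FPKM in iPSC (1.81 ± 0.41), and lost its call without replicate 2 of iPSC with BMP4 (limma adjusted p = 0.1) and without replicate 2 of TSC with BMP4.

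The primitive streak, where epiblast cells turn into mesoderm and endoderm, is a known target of BMP4 in the epiblast. Of 27 tested streak and early mesoderm genes 10 were lower in TSC and 3 were higher. Without BMP4, 9 of the 27 were lower and 1 was higher, beside 20.2% and 16.2% over all tested genes. None of the 27 passed the test of the iPSC response to BMP4, which does not show that none changed. Over all tested genes only 8 passed that test (0.0597%). The median iPSC response of the 27 was 0.77, beside 0.05 over all tested genes. T, the brachyury gene that marks the streak, had 0.381 and 0.162 FPKM in TSC with BMP4 and 172 and 270 FPKM in iPSC with BMP4 (-7.42 ± 0.84, limma adjusted p = 0.000192). Fgf8, the FGF that streak cells need in order to migrate, had 0.409 and 0.893 FPKM in TSC and 97.1 and 309 FPKM in iPSC (-6.74 ± 0.87, limma adjusted p = 0.000361). Fst, which encodes follistatin, a secreted binder of activins and BMPs, had 0.0411 and 0.140 FPKM in TSC and 129 and 80.5 FPKM in iPSC (-6.56 ± 0.67, limma adjusted p = 9.52e-05). Mixl1, a streak homeobox gene, had 1.39 and 1.11 FPKM in TSC and 18.6 and 70.3 FPKM in iPSC, and its call held only without replicate 1 of iPSC with BMP4. The 3 streak genes higher in TSC were Hand1, Eomes and Gata4, all of which extraembryonic lineages also use, and the Gata4 call held only without replicate 1 of TSC with BMP4.

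Genes of Nodal signalling, which the epiblast needs before the streak forms, were also called lower in TSC more often than higher. The lists share members, so this is not a separate result. Nodal is also on the streak and formative epiblast lists, and Tdgf1 and Gdf3 are also on the pluripotency list. Of 16 tested pathway members 6 were lower in TSC and 1 was higher. The ligand gene Nodal had 0.835 and 3.83 FPKM in TSC with BMP4 and 75.1 and 64.6 FPKM in iPSC with BMP4 (-4.57 ± 0.57, limma adjusted p = 0.000296). Lefty2, a secreted inhibitor that NODAL induces, had 0.309 and 1.97 FPKM in TSC and 32.3 and 34.5 FPKM in iPSC (-4.12 ± 0.70, limma adjusted p = 0.00193). Foxh1, the DNA-binding partner of the NODAL-activated SMADs, was high in both, at 64.6 and 47.7 FPKM in TSC and 95.2 and 84.4 FPKM in iPSC, and did not pass (limma adjusted p = 0.318). Ligand, co-receptor and inhibitor therefore differed while this factor was present in both cell types.

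Known targets of BMP-activated SMADs did not fall on 1 side. Without BMP4, 9 of 23 tested BMP-SMAD targets were higher in TSC and 3 were lower, beside 16.2% and 20.2% over all tested genes. These counts thus compare cell types and do not measure a response to BMP4. The response itself passed upwards in 4 and downwards in 1 of the 23 in TSC, and in none in iPSC. Over all tested genes it passed in 12.1% in TSC and 0.0597% in iPSC, so none of 23 in iPSC says little. The median response of the 23 was 0.09 in TSC and 1.15 in iPSC, beside 0.02 and 0.05 over all tested genes. With BMP4, 5 of the 23 were higher in TSC and 4 were lower, with a median difference of 0.01. The numbers were 3 and 3 without replicate 1 of iPSC with BMP4 and 5 and 2 without its replicate 2. The Id genes, which encode helix-loop-helix proteins that block differentiation factors, split among themselves. Id2 had 1538 and 854 FPKM in TSC with BMP4 and 142 and 224 FPKM in iPSC with BMP4 (2.68 ± 0.42, limma adjusted p = 0.00108). Id3 had 45.3 and 16 FPKM in TSC and 161 and 208 FPKM in iPSC (-2.71 ± 0.76, limma adjusted p = 0.0274). The Id3 call held only without replicate 1 of TSC with BMP4, and without replicate 2 of TSC with BMP4 the limma adjusted p was 0.172. Id1 had 61.8 and 42.7 FPKM in TSC and 303 and 332 FPKM in iPSC, groups that do not overlap, and just missed the threshold (-2.60 ± 0.88, limma adjusted p = 0.0578). Id1 passed after quantile normalization, with library quality weights, with predicted names left out and in the fit of these 4 libraries alone.

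The promoters of Id2 and Id3 are shown because these genes answer the same pathway and lay on opposite sides here. Both sequences are the 250 bases before the RefSeq transcription start in mouse build GRCm38.p6, on the strand of the gene. Capitals mark GGCGCC, a palindrome known as a binding motif of the BMP SMADs, so a search of both strands finds the same places.
Id2, chr12:25096093-25096342, minus strand: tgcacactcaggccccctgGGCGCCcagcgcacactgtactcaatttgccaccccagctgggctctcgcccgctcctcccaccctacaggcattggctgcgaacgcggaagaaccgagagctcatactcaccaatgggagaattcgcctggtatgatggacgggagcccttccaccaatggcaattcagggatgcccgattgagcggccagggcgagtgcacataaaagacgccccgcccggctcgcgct
Id3, chr4:136143572-136143821, plus strand: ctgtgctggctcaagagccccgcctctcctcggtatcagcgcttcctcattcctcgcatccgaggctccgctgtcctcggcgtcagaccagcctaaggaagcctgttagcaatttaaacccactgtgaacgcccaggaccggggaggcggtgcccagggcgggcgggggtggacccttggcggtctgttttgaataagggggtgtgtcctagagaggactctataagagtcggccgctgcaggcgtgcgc
The Id2 window holds the motif 1 time and the Id3 window 0 times, and 3149 of 32851 promoter windows of the same length (9.59%) hold it. A match is a description of these letters and says nothing of binding.

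Among the other targets, Hes1, a Notch and BMP responsive repressor, had 9.15 and 5.33 FPKM in TSC with BMP4 and 47.0 and 53.4 FPKM in iPSC with BMP4 (-2.67 ± 0.45, limma adjusted p = 0.00191). Msx1, a homeobox target of BMP in mesoderm, had 2.43 and 0.949 FPKM in TSC and 23.2 and 60.3 FPKM in iPSC (-3.90 ± 0.77), and without replicate 2 of iPSC with BMP4 its limma adjusted p was 0.0513. Smad6, an inhibitory SMAD that BMP induces, had 4.51 and 4.09 FPKM in TSC and 0.865 and 1.66 FPKM in iPSC (1.25 ± 0.30), and its call was lost without replicate 1 of iPSC with BMP4 (limma adjusted p = 0.132) and without replicate 1 of TSC with BMP4. Smad7, the other inhibitory SMAD, had 6.73 and 9.51 FPKM in TSC and 4.21 and 4.38 FPKM in iPSC and did not pass (limma adjusted p = 0.13). The targets higher in TSC thus included trophoblast factors such as Dlx3, Tfap2c and Gata3, and those lower included Msx1, Id3, Hes1 and Zfp423. For Dlx3, Tfap2c and Gata3 the difference was smaller with BMP4 than without, by -3.05, -2.70 and -3.01 as given below.

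Ligands, receptors and antagonists of the pathway were as divided, with 4 of 24 tested genes higher in TSC and 4 lower. Bmp8b, a ligand of the extraembryonic ectoderm that helps to induce germ cells, had 20.6 and 29.1 FPKM in TSC with BMP4 and 0.946 and 1.28 FPKM in iPSC with BMP4 (3.60 ± 0.63, limma adjusted p = 0.00224). Its neighbour Bmp8a had 7.18 and 18.2 FPKM in TSC and 0.403 and 0.423 FPKM in iPSC (3.15 ± 0.44, limma adjusted p = 0.000528), and since these paralogs are alike, reads may be shared between them. Fstl3, a binder of activins, had 9.23 and 17.4 FPKM in TSC and 2.11 and 2.51 FPKM in iPSC (2.05 ± 0.29, limma adjusted p = 0.00059). Every TSC library lay above every iPSC library for these genes. The transcript of Bmp4 itself had 16.4 and 13.8 FPKM in TSC and 0.876 and 16.5 FPKM in iPSC, so the groups overlapped (limma adjusted p = 0.231). Its difference was 1.48 ± 0.82 with all libraries, -0.13 without replicate 1 of iPSC with BMP4, and called without replicate 2 (limma adjusted p = 0.0149). The type I receptor gene Bmpr1a was at 3.72 and 4.80 FPKM in TSC and 3.57 and 4.79 FPKM in iPSC, and Smad5, a SMAD that this receptor activates, was at 14.1 and 10.2 FPKM in TSC and 8.56 and 11.6 FPKM in iPSC. Gdf3, a ligand of pluripotent cells, had 0.0457 and 0.350 FPKM in TSC and 34.5 and 26.0 FPKM in iPSC (-4.70 ± 0.63, limma adjusted p = 0.000446).

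WNT ligands differed by member. Of 29 tested WNT ligands and targets 9 were lower in TSC and 3 were higher (5 higher without replicate 1 of TSC with BMP4). Wnt3, which the epiblast needs for the streak, had 0.0611 and 0.337 FPKM in TSC with BMP4 and 16.1 and 12.5 FPKM in iPSC with BMP4 (-3.67 ± 0.42, limma adjusted p = 0.000205). Sp5, a direct WNT target of the streak, had 0.0463 and 0 FPKM in TSC and 25.7 and 13.9 FPKM in iPSC (-4.29 ± 0.50, limma adjusted p = 0.000205). Wnt6 and Wnt7b, the second of which the placenta needs to join the allantois, lay the other way. Wnt6 had 59.9 and 79.6 FPKM in TSC and 3.20 and 2.20 FPKM in iPSC (4.26 ± 0.56, limma adjusted p = 0.000414), and Wnt7b had 18.2 and 19.1 FPKM in TSC and 0.308 and 0.249 FPKM in iPSC (3.94 ± 0.84, limma adjusted p = 0.0071).

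Genes that report FGF and ERK activity were lower in TSC for 5 of 23 tested and higher for 2, in a medium that held FGF4 for both. The number higher was 0 without replicate 1 of TSC with BMP4 and 1 without any other of the 4 libraries. Dusp6, the ERK phosphatase that ERK itself induces, had 17.5 and 10.0 FPKM in TSC with BMP4 and 121 and 141 FPKM in iPSC with BMP4 (-3.20 ± 0.43, limma adjusted p = 0.000454). Egr1, an immediate early gene, had 1.58 and 1.42 FPKM in TSC and 39.3 and 16.4 FPKM in iPSC (-3.41 ± 0.49, limma adjusted p = 0.000677). Etv5, an ETS target of FGF, had 8.64 and 18.0 FPKM in TSC and 45.3 and 56.0 FPKM in iPSC (-1.93 ± 0.37, limma adjusted p = 0.00413). Fgf4 was listed at 0 in both TSC libraries and had 2.85 and 2.79 FPKM in iPSC (limma adjusted p = 0.00308). Fgfr2, the receptor by which trophoblast takes up the FGF4 signal, had 11.7 and 17.4 FPKM in TSC and 0.849 and 3.53 FPKM in iPSC, apart but not past the threshold (2.41 ± 0.89, limma adjusted p = 0.0808), while Fgfr1 overlapped at 7.14 and 11.7 FPKM in TSC and 8.83 and 12.8 FPKM in iPSC.

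Primordial germ cells are set aside from epiblast that receives BMP4, and their early genes were mostly in the iPSC colonies. Of 17 tested germ cell genes 8 were lower in TSC and 2 were higher, with a median difference of -1.31. Without BMP4, 9 of the 17 were lower and 3 were higher, so lower calls outnumbered higher ones without added BMP4 too. Over all tested genes 20.2% were lower and 16.2% higher without BMP4, so the share higher was near that of all genes. None of the 17 passed the test of the iPSC response to BMP4, which 0.0597% of all tested genes passed. That does not show that none changed, and their median iPSC response was 0.72, beside 0.05 over all tested genes. Ifitm3, a membrane protein gene that early germ cells express, had 34.1 and 10.3 FPKM in TSC with BMP4 and 461 and 664 FPKM in iPSC with BMP4 (-4.80 ± 0.69, limma adjusted p = 0.000709). Dnd1, an RNA-binding protein gene that germ cells need to survive, had 0.122 and 0.360 FPKM in TSC and 19.4 and 52.3 FPKM in iPSC (-4.74 ± 0.64, limma adjusted p = 0.000472). Dppa3, a maternal factor that is also a naive pluripotency gene, had 0.178 and 0.241 FPKM in TSC and 19.3 and 23.9 FPKM in iPSC (-4.22 ± 0.62, limma adjusted p = 0.000758). Prdm1, the repressor that specifies germ cells, was low even in iPSC, with 0.285 and 0.114 FPKM in TSC and 1.56 and 3.73 FPKM in iPSC (-1.54 ± 0.45), and its call held only without replicate 1 of iPSC with BMP4. Nanos3, an RNA-binding factor of germ cells, had 0.165 and 0 FPKM in TSC and 0.521 and 3.72 FPKM in iPSC and did not pass (limma adjusted p = 0.233). The 2 genes higher in TSC, Rhox9 and Tfap2c, are trophoblast genes as well.

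Of 36 tested keratin and junction genes 6 were higher in TSC and 3 were lower, a share of 25% beside 18.2% over all tested genes. Without replicate 1 of iPSC with BMP4 the numbers were 2 and 1, without its replicate 2 they were 3 and 1, without replicate 1 of TSC with BMP4 they were 4 and 1, and without its replicate 2 they were 2 and 2. Cldn3, a tight junction claudin gene, had 161 and 128 FPKM in TSC with BMP4 and 10.8 and 16.7 FPKM in iPSC with BMP4 (3.33 ± 0.60, limma adjusted p = 0.00275). Perp, a desmosome gene, had 212 and 397 FPKM in TSC and 65.1 and 48.7 FPKM in iPSC (2.34 ± 0.36, limma adjusted p = 0.00108). Ocln, another tight junction gene, lay the other way, at 0.805 and 0.430 FPKM in TSC and 7.43 and 7.56 FPKM in iPSC (-2.40 ± 0.29, limma adjusted p = 0.000262). Krt18, a keratin of simple epithelia, had 704 and 656 FPKM in TSC and 163 and 415 FPKM in iPSC (1.38 ± 0.44), a call that held only without replicate 2 of iPSC with BMP4, and its partner Krt8 overlapped, at 282 and 569 FPKM in TSC and 143 and 320 FPKM in iPSC. E-cadherin (Cdh1) had 26.0 and 34.1 FPKM in TSC and 56.5 and 54.4 FPKM in iPSC and did not pass (limma adjusted p = 0.367).

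In the matrix, 5 of 22 tested laminin, collagen and integrin genes were higher in TSC and 2 were lower, and the number higher was 1 without replicate 2 of either group and 3 without replicate 1 of iPSC with BMP4. Nid2, a basement membrane linker gene, had 4.52 and 3.82 FPKM in TSC with BMP4 and 36.2 and 25.7 FPKM in iPSC with BMP4 (-2.61 ± 0.39, limma adjusted p = 0.00084). Pdpn, which encodes the surface glycoprotein podoplanin, had 0.543 and 0.278 FPKM in TSC and 94.7 and 99.3 FPKM in iPSC (-6.12 ± 0.74, limma adjusted p = 0.000262). B2m, the light chain of class I MHC molecules, had 374 and 339 FPKM in TSC and 76.7 and 85.2 FPKM in iPSC (2.13 ± 0.28, limma adjusted p = 0.000397), in a list of interferon and antigen presentation genes with 4 of 21 tested higher and 3 lower. The number higher in that list was 1 without replicate 1 of iPSC with BMP4 and 2 without replicate 2 of either group.

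Of 32 tested glycolysis and hypoxia genes 10 were lower in TSC and 1 was higher, beside a share lower of 10.6% over all tested genes. The number lower was 5 without replicate 1 of iPSC with BMP4, 6 without its replicate 2 and 6 without replicate 1 of TSC with BMP4. Eno1, a glycolytic enolase gene, had 527 and 765 FPKM in TSC with BMP4 and 2659 and 2653 FPKM in iPSC with BMP4 (-2.06 ± 0.23, limma adjusted p = 0.00018), and Egln3, an oxygen sensor gene, had 0.536 and 1.30 FPKM in TSC and 15.4 and 16.6 FPKM in iPSC (-3.18 ± 0.41, limma adjusted p = 0.000346). Gapdh did not follow them, at 4802 and 2993 FPKM in TSC and 2190 and 2370 FPKM in iPSC (0.73 ± 0.24, limma adjusted p = 0.0508). Of 23 tested amino acid and stress response genes 6 were lower and none was higher, and the number lower was 2 without replicate 1 of iPSC with BMP4 and 2 without replicate 1 of TSC with BMP4. Cth, which makes cysteine from cystathionine, had 0.925 and 3.48 FPKM in TSC and 123 and 101 FPKM in iPSC (-5.26 ± 0.70, limma adjusted p = 0.000424), and Slc7a3, a transporter of arginine and lysine, had 0.0865 and 0.184 FPKM in TSC and 46.1 and 17.8 FPKM in iPSC (-4.71 ± 0.81, limma adjusted p = 0.00215).

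Trh and Ifitm1 were also far below in TSC. Trh, the gene of thyrotropin releasing hormone, was listed at 0 in both libraries of TSC with BMP4 and had 69.2 and 60.6 FPKM in iPSC with BMP4 (limma adjusted p = 0.00218). Ifitm1 had 1.94 and 1.08 FPKM in TSC and 110 and 390 FPKM in iPSC (-6.40 ± 1.13, limma adjusted p = 0.00243).

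The remaining lists are given by their counts, to be read beside 7.62% higher and 10.6% lower over all tested genes. Some lie near these shares, such as the cell cycle list, with 17.6% called in either direction beside 18.2% over all tested genes. Higher and lower calls numbered 4 and 3 of 27 for Hippo genes, 3 and 6 of 24 for p53 targets, 2 and 4 of 34 for the cell cycle, 1 and 3 of 19 for DNA methylation, 1 and 3 of 14 for the cadherin switch and 1 and 3 of 12 for FGF ligands and receptors. They numbered 2 and 1 of 28 for cholesterol synthesis, 2 and 1 of 22 for placental hormones and transport, 3 and 1 of 14 for amnion, 1 and 2 of 15 for endoderm, 0 and 3 of 12 for fibroblast markers, 0 and 3 of 34 for ribosomal proteins, 0 and 2 of 4 for Hox genes, 1 and 0 of 4 for neuroectoderm and 0 and 0 of 6 for cleavage-stage genes. Without replicate 1 of iPSC with BMP4 no call was left for cholesterol synthesis, placental hormones and transport, endoderm, neuroectoderm or ribosomal proteins, and the numbers were 1 and 2 for p53 targets, 1 and 1 for the cell cycle and 2 and 2 for Hippo genes. In the same case the number lower was 1 each for fibroblast markers, DNA methylation and Hox genes. Without replicate 2 of iPSC with BMP4 the cleavage-stage genes had 0 higher and 3 lower, p53 targets 1 and 3, and the cell cycle 1 and 1. Without replicate 1 of TSC with BMP4 the numbers were 4 and 2 for p53 targets, 3 and 0 for endoderm, 0 and 1 for fibroblast markers and 1 and 1 for DNA methylation. The ribosomal proteins changed side with the library, with 6 higher and 1 lower without replicate 2 of TSC with BMP4.

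**Figure D3:**
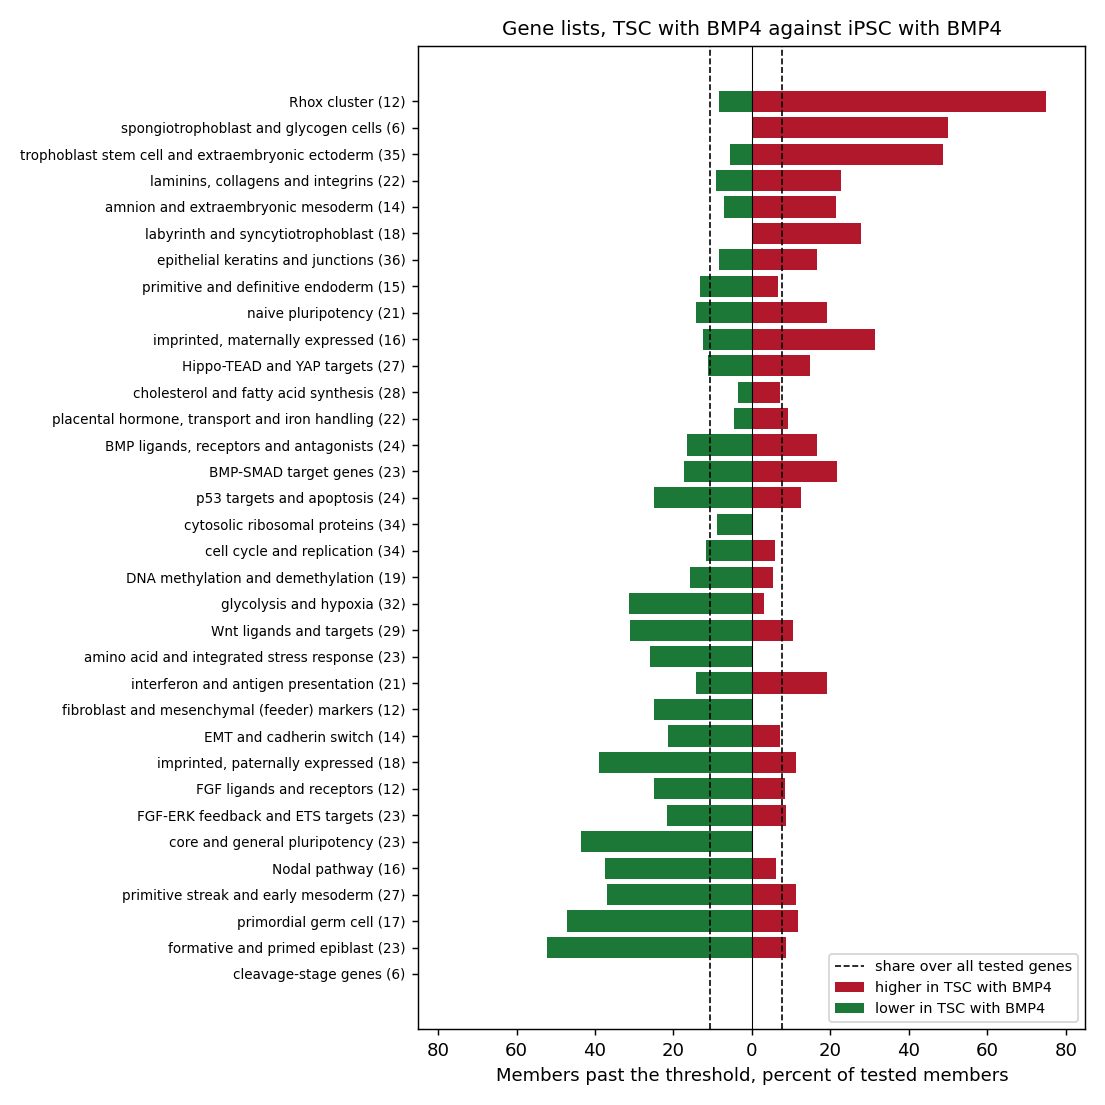
Bars give the percent of each list's tested members that passed the limma threshold, higher in TSC with BMP4 to the right and lower to the left, with the number tested in brackets and lists of at least 6 tested members shown. Dashed lines mark the share over all tested genes, 7.62% higher and 10.6% lower; the Rhox, spongiotrophoblast and trophoblast stem cell lists reach furthest right and the formative epiblast list furthest left.

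The same pair of cell types without BMP4 was compared next, to ask which of these differences changed with BMP4. Without BMP4, TSC and iPSC differed in 4878 of the tested genes (36.4%), 2172 higher in TSC (16.2%) and 2706 lower (20.2%). Of the 2436 calls with BMP4, 1678 were also called without it in the same direction (68.9% of the calls with BMP4 and 34.4% of those without), and 34 in the opposite one. The difference between the differences, with BMP4 minus without, passed in 374 genes (2.79%), 191 higher (1.42%) and 183 lower (1.37%). In 135 of the 191 and 161 of the 183 the distance between TSC and iPSC was smaller with BMP4 than without. Over all tested genes the differences were also less spread with BMP4, with an SD of 1.02 against 1.29 without it. A smaller distance is therefore not particular to these genes. The TSC response to BMP4 itself passed in 176 of the 191 and 154 of the 183, and the iPSC response in 5 and 3. The difference between the differences is also the TSC response minus the iPSC response in the same libraries. These counts therefore follow in part from how the genes were selected. Over all tested genes the response to BMP4 passed in 1625 in TSC (12.1%) and 8 in iPSC (0.0597%). The difference between the differences rested on single libraries, with 56 genes without replicate 2 of iPSC with BMP4, 58 and 63 without replicate 1 or 2 of iPSC without BMP4, 147 without replicate 1 of iPSC with BMP4, 148 without replicate 1 of TSC with BMP4, while 49 genes passed in all 8 cases. In the fit of only these 8 libraries it was 165.

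**Figure D4:**
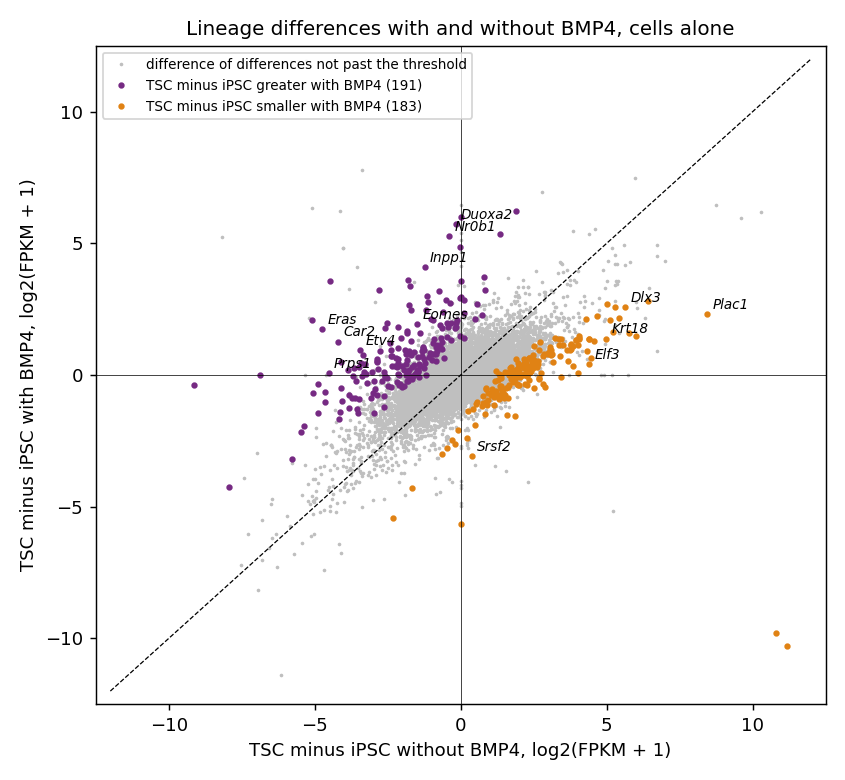
Each point is a tested gene, with the difference TSC minus iPSC in log2(FPKM + 1) with BMP4 on the vertical axis and without BMP4 on the horizontal axis. Coloured points are the 191 genes above and 183 genes below the dashed line of equal difference that passed in limma.

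Several genes that moved far towards TSC were near silent in TSC without BMP4. Inpp1, an inositol phosphatase gene, had 59.3 and 76.1 FPKM in TSC with BMP4 and 0.106 and 1.08 FPKM in TSC without it, while iPSC had 2.77 and 3.19 FPKM with BMP4 and 2.31 and 2.82 FPKM without (difference of the differences 5.33 ± 0.45, limma adjusted p = 0.000116). Duoxa2, described above, had 0 and 0.245 FPKM in TSC without BMP4 and 0.472 and 0.0728 FPKM in iPSC without BMP4 (5.91 ± 0.51, limma adjusted p = 0.000116). In both genes the 2 libraries of TSC with BMP4 stood far above the other 6. Ddah1, an enzyme gene that clears methylated arginines, had 78.6 and 111 FPKM in TSC with BMP4, 1.94 and 1.35 FPKM in TSC without it, and 7.12 to 8.94 FPKM in the 4 iPSC libraries (5.11 ± 0.73, limma adjusted p = 0.00433). Nr0b1 had 0.0476 and 0.0705 FPKM in TSC without BMP4 and 0.459 and 0.316 FPKM in iPSC without BMP4 (5.66 ± 0.97, limma adjusted p = 0.0123), a call lost in 3 of 8 cases of a library left out.

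In other genes TSC with BMP4 stood near or above iPSC with BMP4, having been far below iPSC without it. Prps1, an enzyme gene of nucleotide synthesis, had 44.2 and 42.2 FPKM in TSC with BMP4 and 39.6 and 42.9 FPKM in iPSC with BMP4, against 1.11 and 3.43 FPKM in TSC and 70.1 and 68.5 FPKM in iPSC without BMP4 (4.59 ± 0.50, limma adjusted p = 0.000851). Foxh1 had 0.834 and 4.86 FPKM in TSC without BMP4 and 124 and 96.1 FPKM in iPSC without BMP4 (4.39 ± 0.63, limma adjusted p = 0.00463). Eras, an embryonic RAS gene, had 10.0 and 6.98 FPKM in TSC with BMP4 and 2.78 and 1.09 FPKM in iPSC with BMP4, against 0 and 0.131 FPKM in TSC and 28.8 and 26.6 FPKM in iPSC without BMP4 (6.49 ± 0.83, limma adjusted p = 0.00223). The carbonic anhydrase gene Car2 had 366 and 469 FPKM in TSC and 196 and 152 FPKM in iPSC with BMP4, against 14.0 and 22.8 FPKM in TSC and 420 and 281 FPKM in iPSC without it (5.45 ± 0.55, limma adjusted p = 0.000596). For Prps1, Foxh1, Eras and Car2 the call held without any 1 of the 8 libraries.

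Among FGF and ERK targets the change was towards TSC in 6 of 23 tested and away in 2, with a median of 1.43, against -0.02 over all genes. The numbers were 2 and 0 without either replicate of iPSC without BMP4 or without replicate 2 of iPSC with BMP4, and 3 or 4 and 0 without any other of the 8 libraries. Etv4 (chosen after its values were seen), an ETS factor that FGF induces, had 14.6 and 16.1 FPKM in TSC and 8.25 and 6.82 FPKM in iPSC with BMP4, against 0.143 and 0.0528 FPKM in TSC and 13.0 and 9.30 FPKM in iPSC without it (4.39 ± 0.52, limma adjusted p = 0.00134). Etv5 had 0.0640 and 0.208 FPKM in TSC without BMP4, and its change was 3.44 ± 0.53 (limma adjusted p = 0.00648), and that in Dusp6 2.56 ± 0.61 (limma adjusted p = 0.0461), which was lost in 7 of the 8 cases of a library left out. In the formative epiblast list 6 of 23 tested genes also shifted towards TSC and none away, and the number was 3 without either replicate of iPSC without BMP4 or without replicate 2 of iPSC with BMP4. Zic5 was among the 6, at 0.0167 and 0 FPKM in TSC without BMP4 (4.38 ± 0.58, limma adjusted p = 0.00264). Eomes belonged to the same direction, at 0.219 and 0.0844 FPKM in TSC without BMP4 and 2.41 and 2.03 FPKM in iPSC without BMP4 (3.41 ± 0.50, limma adjusted p = 0.00476). Eomes was thus higher in TSC than in iPSC with BMP4 and lower without it (-1.48 ± 0.35, limma adjusted p = 0.00575).

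Some genes of differentiated trophoblast and epithelium moved the other way, with less of them in TSC with BMP4 than in TSC without it. Dlx3 had 87.2 and 81.0 FPKM in TSC without BMP4 and 1.07 and 0.413 FPKM in iPSC without BMP4 (-3.05 ± 0.43, limma adjusted p = 0.00408). Serpinb9b, a serpin gene, had 2.65 and 3.59 FPKM in TSC and 0.0290 and 0.645 FPKM in iPSC with BMP4, against 76.5 and 39.9 FPKM in TSC and 0.665 and 0.394 FPKM in iPSC without it (-3.55 ± 0.50, limma adjusted p = 0.00408). These 2 calls held without any 1 of the 8 libraries. The changes in Plac1 (-6.13 ± 1.10, limma adjusted p = 0.0154), Krt18 (-3.60 ± 0.62, limma adjusted p = 0.0126) and the ETS factor gene Elf3 (-4.00 ± 0.73, limma adjusted p = 0.0164) passed with all libraries and were lost in 3, 2 and 4 of the 8 cases. Elf3 had 21.8 and 28.1 FPKM in TSC and 11.2 and 30.0 FPKM in iPSC with BMP4, so that the groups overlapped, against 305 and 158 FPKM in TSC and 9.45 and 9.34 FPKM in iPSC without it. The trophoblast stem cell list had 2 higher and 5 lower of 35 tested, the labyrinth list 0 and 3 of 18, the keratin and junction list 0 and 3 of 36 and the BMP-SMAD list 0 and 3 of 23, beside 1.42% and 1.37% over all tested genes. Without replicate 2 of iPSC with BMP4 the numbers lower were 0, 1, 0 and 1 in these lists. Without replicate 1 of iPSC without BMP4 they were 1 in each, and without its replicate 2 they were 0, 2, 1 and 1. Without replicate 1 of TSC with BMP4 they were 2, 1, 1 and 1, and without any other of the 8 libraries they were 3 to 6, 2 to 5, 1 to 4 and 2 to 4.

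For Id1, Id2, Id3 and T the difference between the cell types was not shown to change with BMP4. The change was 0.67 for Id2, -0.74 for Id3, -1.70 for Id1 and -2.75 for T, and none passed. In the streak list 1 of 27 tested genes passed, which is Eomes. Srsf2, a splicing factor gene, differed in iPSC rather than in TSC, at 5.36 and 7.16 FPKM in TSC and 65.2 and 54.3 FPKM in iPSC with BMP4, against 2.50 and 6.02 FPKM in TSC and 2.44 and 3.18 FPKM in iPSC without it (-3.46 ± 0.58, limma adjusted p = 0.0104). Its call was lost without replicate 1 of iPSC without BMP4 (limma adjusted p = 0.0639).

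**Figure D5:**
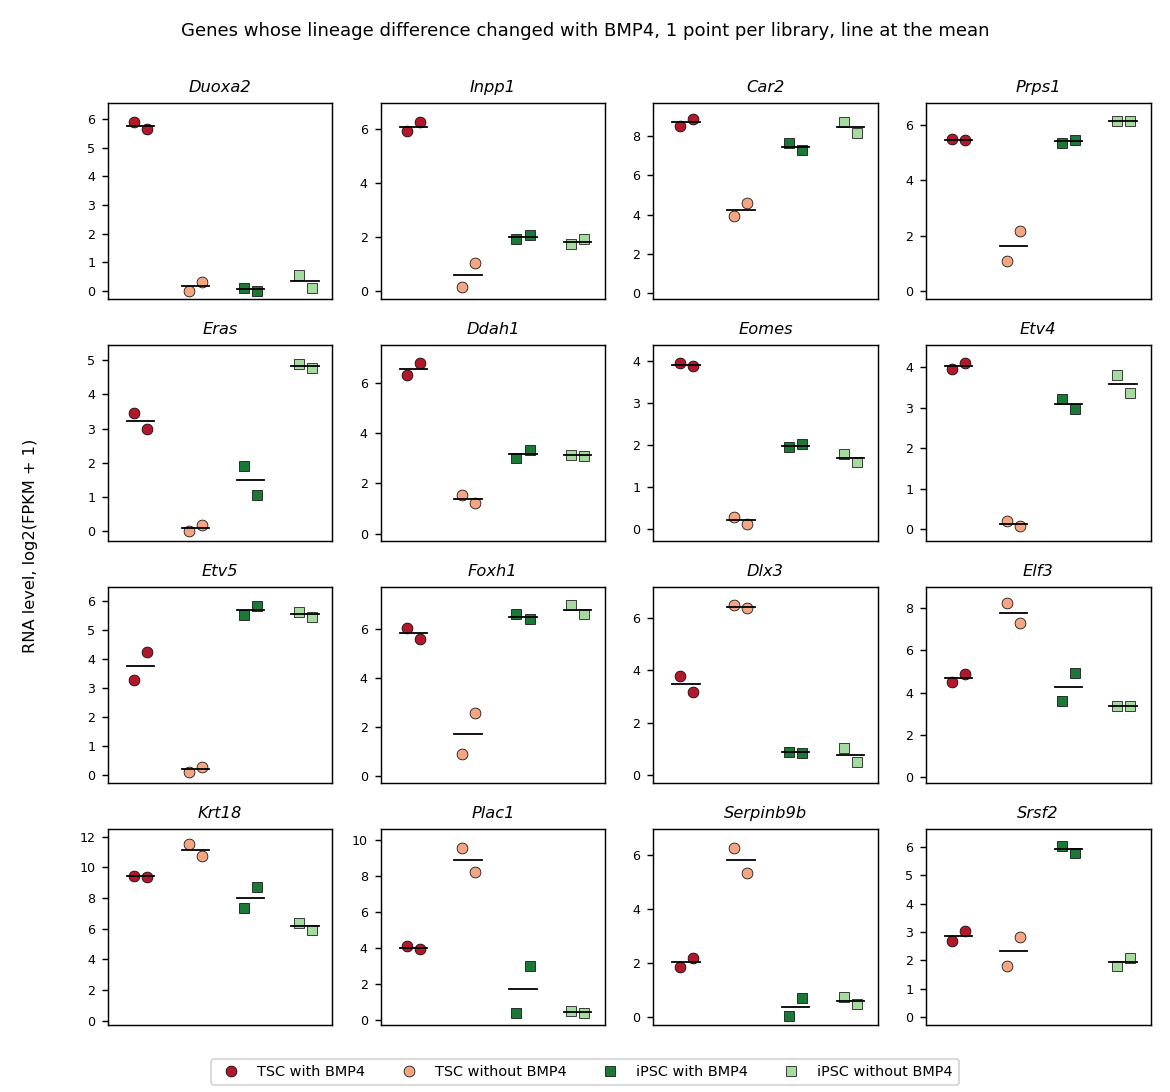
Level of log2(FPKM + 1) on the vertical axis, 1 point per library and a line at the group mean, of 16 genes whose TSC to iPSC difference changed with BMP4, in TSC with and without BMP4 and in iPSC with and without it. Inpp1 and Duoxa2 are high in TSC with BMP4 alone, and Dlx3 is highest in TSC without BMP4.

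The TSC and iPSC parts of mixed structures, also with BMP4, were compared last, as the same pair of cell types grown together. Between the assembled parts 1359 genes passed (10.1%), 713 higher in the TSC part (5.32%) and 646 lower (4.82%). The difference in cells alone minus that in the parts passed in 4 genes (0.0298%), 1 higher (0.00746%) and 3 lower (0.0224%), with 992 at an unadjusted p under 0.05 and a median over all genes of -0.13. Besides Srsf2 these were the predicted or small RNA entries Gm14870, Gm24151 and Gm25117 (chosen after their values were seen). The count ran from 3 to 17 when any 1 of the 8 libraries was left out, with 14 and 17 without replicate 1 or 2 of the assembled iPSC part and 9 without replicate 2 of the assembled TSC part, and it was 21 with no filter on low values. Srsf2 had 6.67 and 8.03 FPKM in the assembled TSC part and 1.81 and 5.24 FPKM in the assembled iPSC part (-4.06 ± 0.58, limma adjusted p = 0.0324), so that its high level was seen in iPSC alone with BMP4. That call was lost in 6 of 8 cases, with a limma adjusted p of up to 0.23 without replicate 1 of iPSC with BMP4.

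With so few differences past the threshold, the assembled parts and the cells alone are given side by side. Pou5f1 had 0.137 and 2.10 FPKM in the assembled TSC part and 49.5 and 112 FPKM in the assembled iPSC part, a difference of -5.33 there and -7.20 in cells alone. T had 1.31 and 3.73 FPKM in the TSC part and 326 and 94.8 FPKM in the iPSC part, a difference of -5.74 there and -7.42 in cells alone. Id2 and Id3 kept their opposite sides, with differences of 1.88 (limma adjusted p = 0.0137) and -3.56 (limma adjusted p = 0.0121) between the parts. Eomes had 29.2 and 33.8 FPKM in the TSC part and 16.5 and 18.1 FPKM in the iPSC part. Its difference of 0.82 there did not pass (limma adjusted p = 0.165). The Eomes difference was not shown to change between cells alone and parts, since the test of that change did not pass. Replicate 2 of the assembled iPSC part held trophoblast transcripts, with Elf5 at 50.4 FPKM against 0.193 FPKM in replicate 1 and Hand1 at 149 FPKM against 10.4 FPKM. The part of these transcripts in the smaller differences between assembled parts was not tested.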

How the data were processed

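RNA was measured in 16 libraries of 8 groups, 2 per group, made with Smart-seq2 per the labels' protocols. The authors deposited 1 table of FPKM values with 31663 entries, and every column was used. CASAVA, TopHat2, mm9 and hg19 occur in the submitters' processing notes, with no roles. The sources used here do not say which program made the deposited FPKM or with which annotation, so depth is unknown and no counting interval can be had.

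Values were taken as log2(FPKM + 1), kept at 1 FPKM or more in at least 2 libraries (13406 entries), and fitted as 8 group means with limma 3.58.1 in R 4.3.3 (eBayes with trend, 8 residual degrees of freedom). P-values are two-sided, adjusted by Benjamini-Hochberg over all tested entries of a comparison, with a threshold of 0.05. The differences between differences are contrasts of the same fit. Tables and figures were made in Python 3.11.15 with pandas 2.3.3, numpy 2.4.6 and matplotlib 3.10.9. Promoters came from RefSeq, where Id2 and Id3 matched by symbol.

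The 37 gene lists (878 genes, 841 in the table, 620 tested), 52 genes named whatever their result, and the comparisons were chosen with earlier results of these data known. Some genes are on several lists, so the counts of different lists are not independent. Named beside these are, in each direction, up to 10 genes of largest change past the threshold, groups apart and a mean of at least 5 FPKM, predicted and small RNA names left out, up to 4 members per list and direction, and up to 2 members per list that did not pass. Differences between differences added up to 8 genes per direction, or the 10 smallest p. Some genes that meet these rules are not reported here. Alternatives were a pseudocount of 0.1, no filter, a filter of 5 FPKM, quantile normalization, upper quartile rescaling, predicted names left out, library quality weights, a fit of the compared groups alone, a replicate block, a 2-fold minimum and leaving out each library.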

Additional observations from a re-analysis of the deposited data

Results flagged for a closer look

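Differences between TSC and iPSC that were not the same with and without BMP4 are collected here, since limma tested the change itself. The change, with BMP4 minus without, passed in 374 genes. Among named genes it was positive, towards TSC, for Eras (6.49), Duoxa2 (5.91), Nr0b1 (5.66), Car2 (5.45), Inpp1 (5.33), Ddah1 (5.11), Prps1 (4.59), Etv4 (4.39), Foxh1 (4.39), Zic5 (4.38), Morc4 (4.33), Ccl2 (4.03), Etv5 (3.44), Eomes (3.41), Dusp6 (2.56) and B2m (1.62). It was negative for Plac1 (-6.13), Elf3 (-4.00), Krt18 (-3.60), Serpinb9b (-3.55), Srsf2 (-3.46), Dlx3 (-3.05), Gata3 (-3.01) and Tfap2c (-2.70), and for the predicted entry Gm14870 (-5.65). Of these, Morc4 lost its call without any 1 of the 8 libraries, and B2m, Ccl2, Dusp6, Gata3 and Tfap2c lost theirs without at least 5 of them.

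Between cells alone and assembled parts, both with BMP4, 4 genes differed in their TSC to iPSC difference. The change was -4.06 for Srsf2, -5.65 for Gm14870, -5.52 for Gm25117 and 7.25 for Gm24151. With 2 libraries per group no single library could be tested for standing apart.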

How the results depend on the processing

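Without 1 library each, the genes called between TSC and iPSC with BMP4 numbered 954 to 1803, those whose difference changed with BMP4 56 to 426, and those whose difference changed in assembled parts 3 to 17. In the fit of only the groups compared the first 2 counts were 1195 and 165. The third count was 21 with no filter and 1 with predicted names left out. Under the other alternatives, counts stayed within 1.5 times those reported. With a pseudocount of 0.1, 212 changes with BMP4 were towards TSC and 98 away.

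Of 84 named genes called with BMP4, 64 held without any 1 library, 1 was lost after quantile normalization and 12 in the fit of only the groups compared. The sign turned when a library was left out for 5 named genes that did not pass, with ranges of -0.13 to 3.09 for Bmp4, -0.15 to 0.20 for Bmpr1a, -0.46 to 0.80 for Cdx2, -0.27 to 1.08 for Elf3 and -0.52 to 0.13 for Fgfr1. The cause of these moves was not tested.

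The labels do not pair the replicate numbers, and same-numbered libraries of TSC and iPSC with BMP4 did not deviate together (Pearson's r = -0.05 across genes). With the replicate block the counts were 2309, 331 and 6. Depth is unknown, so the error of a low FPKM cannot be set. With 2 colonies per group, small differences could not be resolved.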
